A study of Saccharomyces cerevisiae with 18 samples.

Results

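Cytosolic ribosomal protein genes were taken as every gene whose symbol in the array annotation is RPL or RPS followed by a number and, where present, the copy letter A or B. The rule found 122 of the 5449 genes that the array could test, 70 for proteins of the large subunit (RPL) and 52 for proteins of the small subunit (RPS). The symbol alone chose them, and no measured value was used. A total of 48 proteins were represented by both an A and a B copy, 17 genes carried no copy letter, and 9 lettered genes were measured without their partner. A further 10 genes with such a name in the reference were not analysed here.

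Total RNA came from triplicate bioreactor cultures of 6 strains of Saccharomyces cerevisiae, one array per culture. All strains were built in the uracil-requiring laboratory strain CEN.PK 113-5D of mating type a and carried a high-copy URA3 plasmid with a strong constitutive glycolytic promoter, which was empty (N) or drove a secreted insulin precursor (I) or a secreted α-amylase (A). WN, WI and WA had an intact HAC1 gene, and in dN, dI and dA that gene was replaced by the kanMX cassette. Hac1, the product of that gene, switches on the unfolded protein response. The log2 signal of HAC1 averaged 10.63 ± 0.10 (SD, n = 3) in WN, and the 9 deletion arrays all lay between 1.08 and 1.75. The labels do not say whether the cultures of a strain came from 1 or several transformants.

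Each ribosome of yeast is assembled from ribosomal RNA and one copy of most ribosomal proteins. Making these proteins takes a large part of the transcription of a growing cell, and in yeast their genes are known to be switched up and down together with growth rate and nutrient supply, opposite to the general stress genes. Most are present as a pair of nearly identical copies from an ancient genome duplication, and a few, such as RPL30, RPS14B, RPL22B and RPS28B, are known in yeast to be repressed after transcription by the protein they encode.

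Array-wide facts set the error of what follows. The deviations of single arrays from their strain mean had an SD over all genes of 0.0768 to 0.155 in 15 arrays, 0.180 in WA replicate 1, 0.250 in dN replicate 2 and 0.361 in dN replicate 3. The mean of 5 marker genes of mating type a was 8.55 to 9.33 per array, and that of 4 markers of mating type alpha was 3.80 to 5.44. Of the alpha markers, MF(ALPHA)2 was lowest, at 1.64 to 2.53, against an array background of 4.38 to 4.63. The other alpha markers were not all at background. MF(ALPHA)1 ran from 3.81 in dN replicate 3 to 7.96 in WA replicate 3, STE3 from 4.05 to 6.09 and SAG1 from 5.54 to 5.91. The label of WN replicate 1 describes a way of breaking the cells that differs from the other labels, and the study's methods describe a single way. Because the deposited values were brought to a common scale between arrays, a fall in all mRNA of a cell would not show, and in a bulk culture less mRNA per cell and fewer cells that carry it cannot be told apart.

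Ribosomal protein genes had higher mean signals without HAC1 when the vector was empty. In dN compared with WN all 122 genes had a log2 fold change above 0, from 0.01 (RPS23A) to 0.80 (RPL22B), with a median of 0.26, a 1.20-fold difference. Over all tested genes 54.6% lay above 0, with a median of 0.03. The fit across all genes (limma, adjusted p under 0.05) called 37 of the 122 genes higher, 30.3%, where 9.49% of all genes were called higher. None was called lower, where 12.0% of all genes were. The 3 dN arrays lay above all 3 WN arrays for 87 members (71.3%), against 14.9% of all genes.

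The arrays show how that shift was spread. Each gene was set against its own mean in WN and the median over the 122 genes was taken per array. It was 0.24, 0.11 and 0.43 in dN (unnumbered, replicate 2 and replicate 3), and it lay between -0.07 and 0.05 in WN. WI ranged from -0.07 to 0.05 and dI from 0.00 to 0.07, so those cultures overlapped WN. The dA arrays were close together at 0.17, 0.21 and 0.22. In WA the medians were -0.26, 0.12 and 0.09, with replicate 1 far below its partners. The dN replicate 3 array was the highest of its strain for 118 of the 122 genes, against 43.0% of all genes. WA replicate 1 was the lowest of its strain for 120, against 42.2% of all genes.

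**Figure D1:**
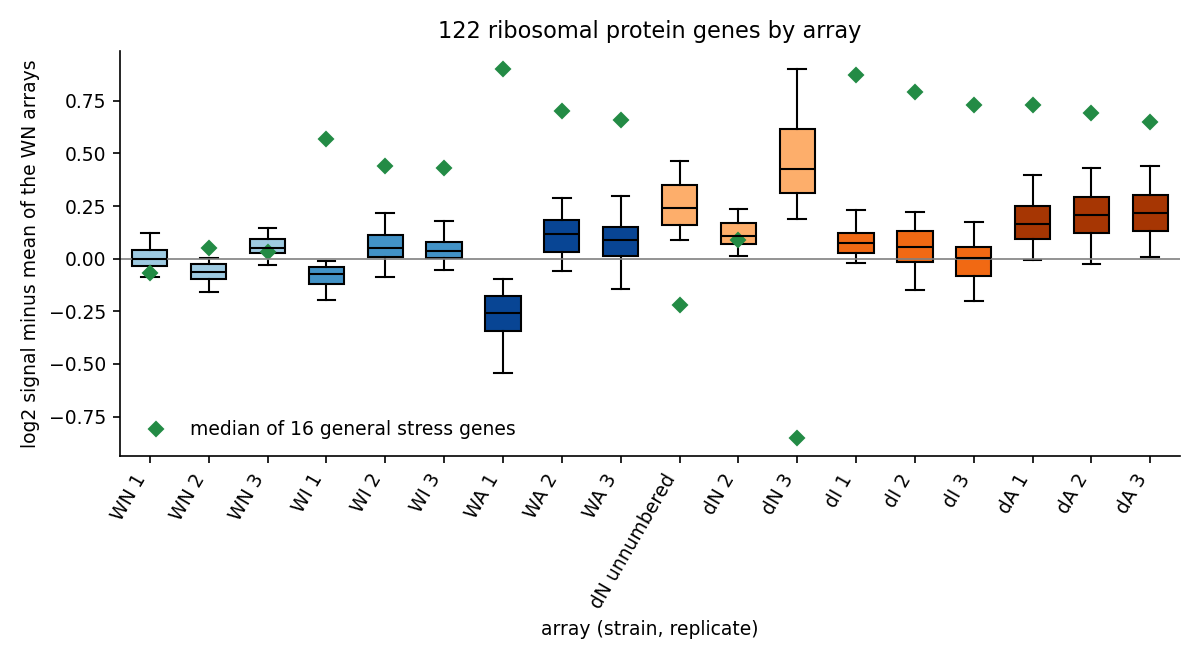
Log2 signal of the 122 ribosomal protein genes in each array, after subtraction of each gene's mean in the 3 WN arrays. Boxes span the quartiles with the median, whiskers the 5th to 95th percentile of genes, and green diamonds give the median of 16 general stress genes. The boxes of dN replicate 3 (median 0.43) and WA replicate 1 (median -0.26) stand apart from their strain, and the dA boxes lie at 0.17 to 0.22.

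General stress genes differed between the same arrays. The median of 16 such genes, set against WN in the same way, was -0.22, 0.09 and -0.85 in dN and 0.90, 0.70 and 0.66 in WA. The dN array with the highest ribosomal protein medians had the lowest stress median, and the WA array with the lowest ribosomal protein median had the highest. In dI the stress medians were 0.87, 0.79 and 0.73, and the ribosomal protein medians fell in the same order (0.07, 0.05 and 0.00). In WI the stress medians were 0.57, 0.44 and 0.43, with ribosomal protein medians of -0.07, 0.05 and 0.04. In dA the stress medians were 0.65 to 0.73, so the dA arrays had both medians above those of WN. Between WN and dN the fit called 4 of the 16 stress genes lower (12.0% of all genes were) and 1 higher (9.49% of all genes). It called 15 higher in dI compared with dN (7.05% of all genes) and 11 higher in WA compared with WN (4.79% of all genes in either direction). In WI compared with WN it called 4 higher (0.294% of all genes in either direction). In dA compared with WA it called 1 higher (9.60% of all genes) and 2 lower (13.6% of all genes). The part of the stress genes in the ribosomal protein result was not tested.

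Among proteins of the large subunit, RPL22B had the largest difference between dN and WN. Its log2 signal was 8.88, 8.80 and 9.23 in WN and 9.72, 9.38 and 10.21 in dN, a log2 fold change of 0.80 (SE 0.21, adjusted p = 0.0134). All dN arrays were above all WN arrays, and dN replicate 3 was the highest. RPL12A, a copy of the gene for a protein at the base of the ribosomal stalk, read 9.94, 9.82 and 10.07 in WN and 10.62, 10.18 and 10.98 in dN (0.65, SE 0.17, adjusted p = 0.0138), again without overlap. RPL13A, for another large subunit protein, read 9.54, 9.58 and 9.83 in WN and 10.23, 9.82 and 10.88 in dN (0.66, SE 0.22, adjusted p = 0.0412). The 2 strains overlapped for RPL13A, as dN replicate 2 was just under WN replicate 3. RPL17B, whose protein lines the exit of the peptide tunnel, changed by 0.49 (SE 0.17) with an adjusted p that rounds to 0.05, at the threshold of the call.

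Of the small subunit, RPS14B and RPS7B led the same comparison. RPS14B read 8.92, 8.92 and 9.13 in WN and 9.70, 9.42 and 9.74 in dN, a log2 fold change of 0.63 (SE 0.16, adjusted p = 0.0111). The lowest dN array was above the highest WN array, and dN replicate 3 did not stand apart for this gene. RPS7B read 9.72, 9.72 and 9.92 in WN and 10.35, 10.07 and 10.81 in dN (0.62, SE 0.19, adjusted p = 0.0283), also without overlap. Among genes with no second copy, 3 of 17 were called higher. They were RPL38 (0.34), RPS15 (0.29) and RPL5 (0.26), the last for the protein that binds 5S ribosomal RNA.

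Insulin precursor in the deletion background went with lower signals of the same gene family. In dI compared with dN, 121 of 122 genes had a log2 fold change below 0, with a median of -0.24 (1.18-fold lower), where 54.1% of all genes lay below 0. The fit called 17 genes lower, 13.9% of the members, where 5.78% of all genes were called lower. No member was called higher, where 7.05% of all genes were. The 3 dI arrays lay below all 3 dN arrays for 57 members (46.7%), against 13.3% of all genes. This comparison shares the dN arrays with the comparison of dN and WN, so a high dN array enters both.

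RPS22B was the member with the smallest adjusted p in dI compared with dN. The gene, for a protein of the small subunit, read 10.06, 9.85 and 10.23 in dN and 9.50, 9.41 and 9.25 in dI, a log2 fold change of -0.66 (SE 0.14, adjusted p = 0.00541). Its highest dI array was 9.50, below every array of WN (9.68 to 9.92) and of WI (9.66 to 9.85) as well. RPS17B read 11.19, 11.04 and 11.29 in dN and 10.85, 10.75 and 10.52 in dI (-0.47, SE 0.10, adjusted p = 0.00611), with no overlap between these strains. RPS14B fell to 9.03, 8.98 and 8.79 in dI (-0.69, SE 0.16, adjusted p = 0.0102) and RPL22B to 9.15, 9.10 and 8.97 (-0.69, SE 0.21, adjusted p = 0.0395). For both genes the dI arrays were within or below the range of WN. RPL4B, for a protein that reaches into the peptide tunnel, changed by -0.49 (SE 0.13, adjusted p = 0.0256), and RPL8B by -0.39 (SE 0.11, adjusted p = 0.037).

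RPL15B ran the other way. It was the 1 member with a higher mean in dI than in dN, with arrays at 7.85, 7.83 and 7.76 in dN and 8.03, 7.96 and 8.18 in dI. The strains did not overlap, and the difference of 0.24 (SE 0.09) missed the threshold at an adjusted p of 0.0865. Its partner RPL15A differed by -0.32 (SE 0.10, adjusted p = 0.0517) in that comparison.

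Under α-amylase, loss of HAC1 again went with higher ribosomal protein signals. In dA compared with WA, 121 of 122 genes had a log2 fold change above 0, with a median of 0.21 (1.16-fold), against 51.8% of all genes. The fit called 12 members higher, 9.84%, where 9.60% of all genes were called higher, so the share called was near that of all genes. The 1 member called lower compares with 13.6% of all genes called lower. The 3 dA arrays lay above all 3 WA arrays for 81 members (66.4%), against 21.8% of all genes.

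Among the small subunit genes called, RPS14B, RPS28B and RPS0B had the largest differences. RPS9A (0.54, adjusted p = 0.0877) and RPS7B (0.44, adjusted p = 0.103) exceeded RPS0B and were not called. RPS14B read 8.15, 8.94 and 8.65 in WA and 9.36, 9.40 and 9.28 in dA, a log2 fold change of 0.76 (SE 0.16, adjusted p = 0.00241). The dA arrays were close to each other and all above WA, whose replicate 1 was lowest. RPS28B read 9.32, 10.07 and 9.94 in WA and 10.37, 10.30 and 10.30 in dA (0.54, SE 0.18, adjusted p = 0.0342). RPS0B, for a protein needed to mature the small subunit, read 10.20, 10.84 and 10.78 in WA and 11.02, 11.06 and 10.99 in dA (0.42, SE 0.15, adjusted p = 0.0498). In both genes the strains were separate, but WA replicates 2 and 3 were much nearer to dA than replicate 1. RPS9B changed by 0.41 (SE 0.13, adjusted p = 0.0306) and RPS17B by 0.32 (SE 0.10, adjusted p = 0.0288).

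On the large subunit side, RPL22B read 8.27, 8.97 and 8.88 in WA and 9.42, 9.48 and 9.56 in dA, a log2 fold change of 0.78 (SE 0.21, adjusted p = 0.0126). RPL5 read 11.19, 11.47 and 11.34 in WA and 11.66, 11.63 and 11.65 in dA (0.32, SE 0.08, adjusted p = 0.0119). Neither gene overlapped between the strains. RPL15B fell, from 8.25, 8.08 and 7.96 in WA to 7.55, 7.73 and 7.89 in dA (-0.37, SE 0.09, adjusted p = 0.00633), with the highest dA array just under the lowest WA array. RPL15B was also the only member called in WA compared with WN, where 4.79% of all genes were called in either direction. It was higher there by 0.33 (SE 0.09, adjusted p = 0.0409), with WN at 7.77, 7.80 and 7.72.

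The comparisons of dN with WN and of dA with WA have no array in common. Of the 12 members called higher in dA, 9 (75.0%) were also called higher in dN, which is 24.3% of the 37 called there. Over all tested genes 187 were called higher in both, 35.8% of the 523 called in dA and 36.2% of the 517 called in dN, and whether the members differ from this was not tested. The 9 members called higher in both were RPL5, RPL12B, RPL14A, RPL22B, RPS9B, RPS11B, RPS14B, RPS17B and RPS19B. The genes called in dA only were RPL31A, RPS0B and RPS28B, and RPS0B and RPS28B had log2 fold changes of 0.41 and 0.48 in dN with adjusted p of 0.055 and 0.0641.

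**Figure D2:**
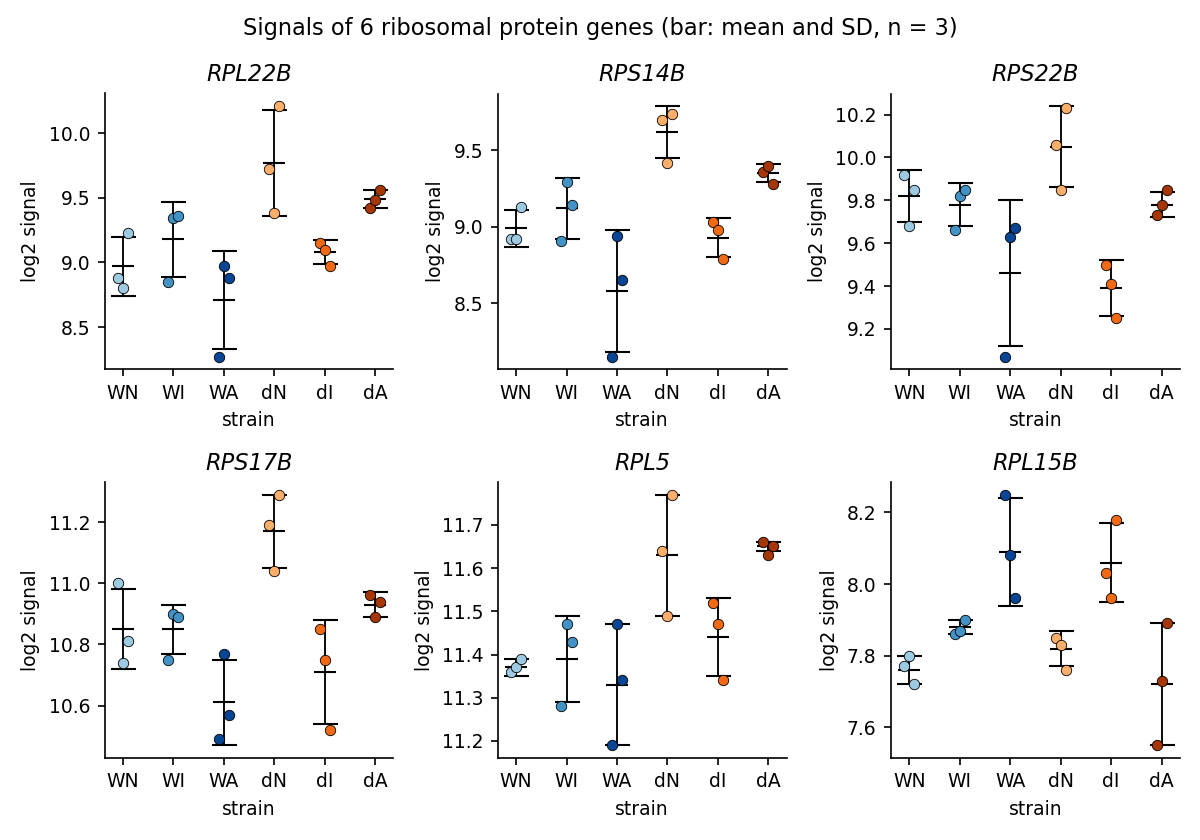
Log2 signals of 6 ribosomal protein genes in every array (points), by strain, with mean and SD (bars, n = 3); each panel has its own axis, and signals of different genes are not comparable. RPL22B, RPS14B and RPL5 lie higher in dN and dA than in WN and WA, RPS22B is lowest in dI apart from 1 WA array at 9.07, and RPL15B is lower in dA than in WA.

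With insulin precursor, the strains with and without HAC1 had nearly the same signals. Between dI and WI no member was called, where 20.2% of all genes were called in either direction. The members' median was 0.04, equal to the median of all genes. An unadjusted p under 0.05 was seen for 1 member, where 31.9% of all genes had one. That member was RPS22B, at -0.39 (SE 0.14, adjusted p = 0.0565), whose dI arrays were all below the WI arrays.

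Secretion in the wild-type background went with small differences. From WN to WI no member was called (0.294% of all genes called) and the median was 0.01, with 65 genes above and 57 below 0. From WN to WA the median was -0.02, and from WI to WA, where 0.496% of all genes were called, none was called and the median was -0.03. WA replicate 1 lowered both medians. Without it they were 0.11 and 0.10, with 100 and 102 of 122 genes above 0. RPL15B was then not called in WA compared with WN, and RPL41A was called lower (-0.63, adjusted p = 0.0177), a gene that was near the array background.

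α-Amylase in the deletion background went with a smaller difference than insulin precursor. From dN to dA the median was -0.08, with 111 of 122 genes below 0, and the 3 dA arrays lay below all 3 dN arrays for 16 members (13.1%), against 13.0% of all genes. The fit called 1 member lower, where 11.8% of all genes were called in either direction. It was RPL27A, at 10.94, 10.91 and 11.04 in dN and 10.76, 10.71 and 10.67 in dA (-0.25, SE 0.08, adjusted p = 0.0491).

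Between the secreting deletion strains, dA was the higher one. From dI to dA, 117 of 122 genes had a log2 fold change above 0 with a median of 0.15. The 3 dA arrays lay above all 3 dI arrays for 84 members (68.9%), against 15.6% of all genes. No member was called in the fit of all 18 arrays, where 0.991% of all genes were called in either direction. An unadjusted p under 0.05 was seen for 15 of the 122 members, near the 13.7% of all genes that had one. A fit of only dI and dA called 17 members, all higher in dA, where 178 of all 5449 genes were called higher and 295 lower. RPS22B was among the members with the largest gaps, at 9.50, 9.41 and 9.25 in dI and 9.73, 9.78 and 9.85 in dA (0.40, SE 0.14, adjusted p = 0.192 over all arrays), as was RPS28B at 9.92, 9.96 and 9.71 in dI and 10.37, 10.30 and 10.30 in dA (0.46, SE 0.18, adjusted p = 0.241).

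Whether secretion acted differently on the family without HAC1 was tested as an interaction. For insulin precursor, the change from the empty vector was lower in the deletion than in wild type for 118 of 122 genes. The median was -0.22. An unadjusted p under 0.05 was seen for 18 of the 122 members, where 11.1% of all genes had one. None passed the adjusted threshold, where 0.716% of all genes did. The largest values were -0.91 for RPL22B (SE 0.29, adjusted p = 0.239) and -0.81 for RPS14B (SE 0.22, adjusted p = 0.151). For α-amylase the median was -0.05, none passed, where 1.34% of all genes did, and the largest value was -0.43 for RPL15B (SE 0.12, adjusted p = 0.122).

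Genes of the large and the small subunit had nearly equal medians. In dN compared with WN the median log2 fold change was 0.28 for the 70 large subunit genes and 0.24 for the 52 small subunit genes, with 24 and 13 called higher. From dN to dI the medians were -0.24 and -0.23, with 9 and 8 called lower. From WA to dA they were 0.20 and 0.21, with 5 and 7 called higher. Within single arrays, the large subunit median minus the small subunit median, both set against WN, stayed between -0.01 and 0.06.

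**Figure D3:**
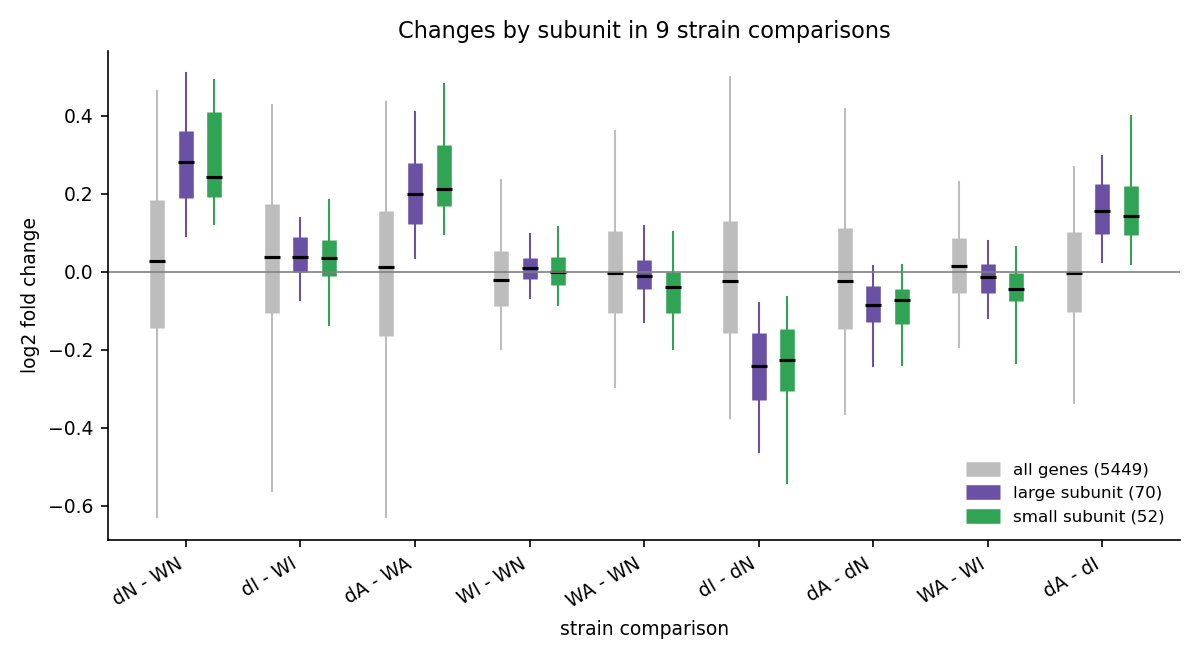
Log2 fold changes in 9 strain comparisons for all tested genes (grey), large subunit genes (purple) and small subunit genes (green). Thick bars span the quartiles, thin lines the 5th to 95th percentile, and black ticks mark medians. Both subunits sit above 0 in dN - WN (0.28 and 0.24) and dA - WA (0.20 and 0.21) and below 0 in dI - dN (-0.24 and -0.23), while the medians of all genes stay near 0.

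Genes with 2 measured copies had larger median changes than genes without a copy letter, a difference that was not tested. In dN compared with WN the median was 0.31 over the 96 genes of pairs and 0.19 over the 17 genes without a letter, and 34 and 3 were called. From dN to dI the medians were -0.26 and -0.16, and all 17 calls were in genes of pairs. From WA to dA they were 0.24 and 0.16. The 9 lettered genes measured without their partner had medians of 0.16, -0.14 and 0.10 in these comparisons. Among them was RPL41A, for the smallest protein of the ribosome, which was the 1 member that came down to the array background in any array (4.52 in WA replicate 3; the background of an array was 4.38 to 4.63).

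A and B copies as classes had close medians. In dN compared with WN the median was 0.29 over A copies and 0.32 over B copies, and the A copy had the higher change in 23 of 48 pairs. Within pairs, both copies were called in 8, only A in 7, only B in 11 and neither in 22. In dI compared with dN both were called in 1 pair, only A in 5 and only B in 10, and in dA compared with WA no pair had both called, 2 only A and 10 only B. No pair had one copy called higher and the other lower in any comparison. A call for 1 copy alone does not show that the copies differ, and the gap between copies was not tested.

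Some pairs parted by much more than the median gap of 0.17 seen in dN compared with WN. In the RPS14 pair the A copy changed by 0.20 and the B copy by 0.63 in dN, by 0.14 and 0.76 in dA compared with WA, and by -0.13 and -0.69 in dI compared with dN. The log2 difference of A minus B, set to 0 in WN, was -0.52, -0.33 and -0.44 in dN, 0.07, 0.09 and 0.23 in dI, and 0.74, 0.11 and 0.38 in WA. All dN arrays were below all arrays of the other strains shown, while dI and WA overlapped. In the RPL22 pair the copies changed by 0.40 (A) and 0.80 (B) in dN and by 0.22 and 0.78 in dA compared with WA. Its A minus B difference was -0.36, -0.31 and -0.53 in dN and 0.38, 0.26 and 0.24 in WA. The WI arrays (0.04, -0.28 and -0.31) reached the level of dN, and the dA arrays (-0.23, -0.24 and -0.32) overlapped it. RPS14, RPL22 and RPS22 were picked for wide gaps, so the separation of their arrays is no test of a difference between copies.

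The copies of RPS22 parted in other strains. The A minus B difference, again set to 0 in WN, was 0.10, 0.05 and 0.09 in WI, 0.46, 0.37 and 0.35 in WA, 0.57, 0.50 and 0.99 in dI, and 0.38, 0.42 and 0.36 in dA. All 9 of the WA, dI and dA arrays were above all 6 of WN and WI. In dN the difference was 0.11, 0.08 and 0.35, so that dN replicate 3 reached the level of WA. Between WI and dI the A copy changed by 0.22 and the B copy by -0.39, and neither was called.

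Further pairs were among the 6 with the widest gap, several of them in more than 1 comparison. In dN compared with WN they were RPL13 (0.66 for A and 0.21 for B), RPL40 (0.09 and 0.47), whose copies encode the same ribosomal protein fused to ubiquitin, RPS7 (0.27 and 0.62) and RPS28 (0.18 and 0.48). For RPL13 the A minus B difference was 0.36, 0.09 and 0.91 in dN, a wide spread, but 0.44, 0.48 and 0.52 in dA. From WA to dA the pairs were RPL15 (0.18 and -0.37), RPS28 (0.04 and 0.54), RPL9 (0.52 and 0.12) and RPL13 (0.51 and 0.15). From dN to dI they were RPL15 (-0.32 and 0.24), RPS28 (-0.07 and -0.54), RPL9 (-0.58 and -0.15) and RPL4 (-0.13 and -0.49). The RPS9 pair, by contrast, stayed together, with A minus B means of 0.02 ± 0.14 (SD, n = 3) in dN and 0.02 ± 0.02 (SD, n = 3) in dA.

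**Figure D4:**
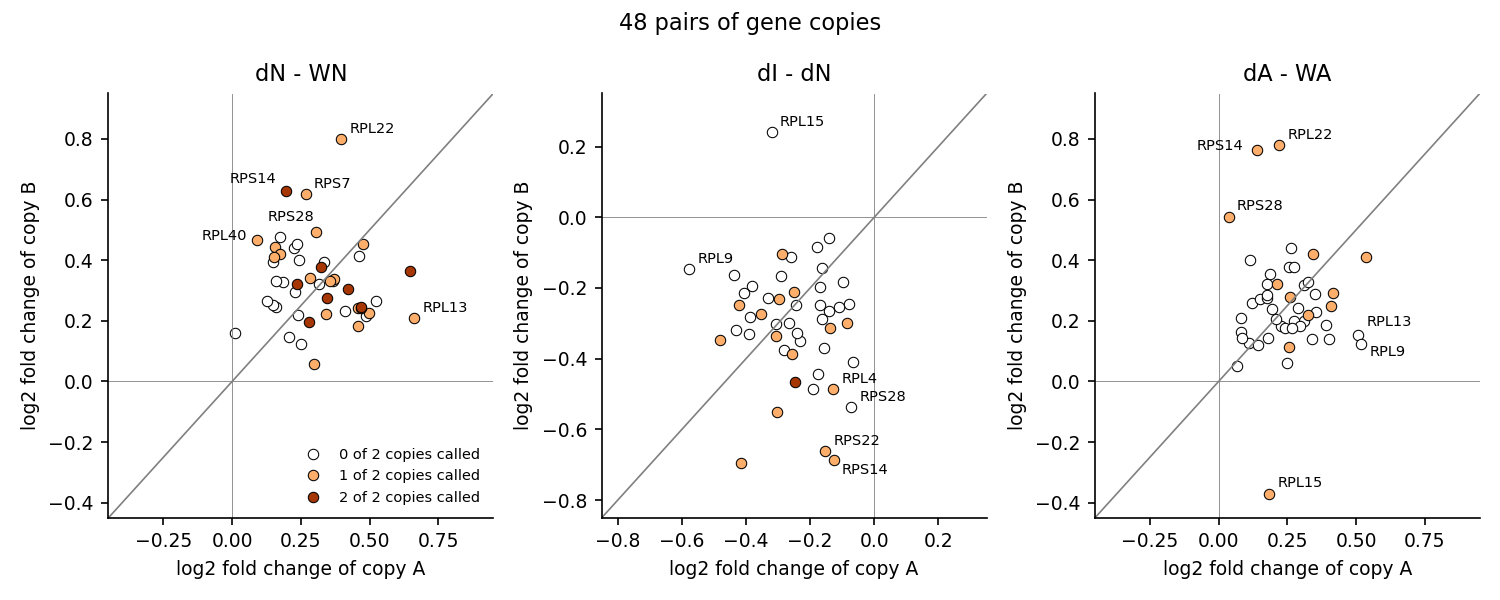
Log2 fold change of the A copy (horizontal) and of the B copy (vertical) for 48 pairs in 3 comparisons, with the line of equal change. Fill gives how many of the 2 copies were called, and the 6 pairs with the largest gap are named. RPS14 and RPL22 lie far above the line in dN - WN and dA - WA, and RPL15 has copies on opposite sides of 0 in dI - dN and dA - WA.

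The probe sets limit how well copies can be told apart. For 25 members the probe set used is of the kind whose probes can also bind related transcripts, and 20 members had a second probe set, one specific to the gene and one shared. In dN compared with WN the specific set gave the larger change in 14 of 20 genes, with medians of 0.28 and 0.22, and all 20 pairs of sets had the same sign. RPL14B changed by 0.41 by its specific set (adjusted p = 0.00339 with all probe sets in the fit) and by 0.20 by the shared set used above. RPL18B changed by 0.55 and 0.21 in the same way, with neither set called (adjusted p = 0.0552 and 0.0864). RPS11B changed by 0.41 and 0.25 (adjusted p = 0.0157 and 0.0215). Of the 20 genes, 5 were called by the specific set and 6 by the shared set, so the larger changes did not bring more calls. The probe sets of RPL22B, RPS14B, RPS22B, RPL15B and RPL5 are of the specific kind.

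Other genes of the ribosome and of translation were followed through lists written from textbook knowledge. The lists are small, and their counts are to be read against the shares of all genes called. These were 9.49% higher and 12.0% lower in dN compared with WN, 9.60% and 13.6% in dA compared with WA, and 7.05% and 5.78% in dI compared with dN. In either direction they were 20.2% in dI compared with WI, 11.8% in dA compared with dN and 4.79% in WA compared with WN. Of 7 genes for stalk and ribosome-bound proteins, 3 were called higher in dN compared with WN (median 0.24) and 3 in dA compared with WA (median 0.28). RPP2A, for an acidic stalk protein, was called in both, by 0.29 (SE 0.08, adjusted p = 0.0177) and 0.28 (SE 0.08, adjusted p = 0.0184). STM1, whose protein binds idle ribosomes, rose by 0.24 (adjusted p = 0.042) and 0.31 (adjusted p = 0.0106). RPP1B rose by 0.30 in dN and was lower by -0.26 in dI compared with dN (adjusted p = 0.0349), and RPP0 rose by 0.29 in dA.

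Among 8 dedicated chaperones, which hold single ribosomal proteins until they join the ribosome, the median was 0.36 in dN compared with WN with 2 called higher (9.49% of all genes). SQT1, the chaperone of the RPL10 protein, read 7.96, 7.89 and 8.04 in WN and 8.30, 8.23 and 8.43 in dN (0.36, SE 0.07, adjusted p = 0.0015), while RPL10 itself changed by 0.09 (SE 0.05, adjusted p = 0.188). YAR1, for the chaperone of the RPS3 protein, rose by 0.26 (adjusted p = 0.0427). From dN to dI the median was -0.32 with 3 called lower (5.78% of all genes), BCP1 (-0.54), SQT1 (-0.24) and TSR2 (-0.57), the chaperones of the RPL23, RPL10 and RPS26 proteins. BCP1 was also lower in dA compared with dN, by -0.52 (SE 0.12, adjusted p = 0.0138).

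Of 11 transcriptional regulators of ribosomal protein genes, STB3, whose product binds promoters of ribosome assembly genes, was called lower in each comparison of a deletion strain with its wild type. It read 8.05, 8.22 and 8.08 in WN and 7.50, 7.55 and 7.05 in dN (-0.75, SE 0.10, adjusted p = 7e-05). It changed by -0.36 (SE 0.10, adjusted p = 0.0221) in dI and by -0.72 (SE 0.10, adjusted p = 0.000112) in dA. SFP1, for an activator of ribosomal protein genes, was higher by 0.29 in dN (adjusted p = 0.0382) and by 0.28 in dI (adjusted p = 0.0493). Between WI and dI the corepressor gene CRF1 was called higher by 0.47 (adjusted p = 0.0109). Its signal was 1.96 to 2.98 in all arrays, under the array background of 4.38 to 4.63, so this call is not evidence of expression. HMO1, for a protein of ribosomal gene promoters, was lower in dI than in WI by -0.28 (adjusted p = 0.0165). From dN to dI, ABF1, for a general promoter-binding factor, was lower by -0.28 (adjusted p = 0.0263), and STB3 higher by 0.35 (adjusted p = 0.0349). The other members were not called in dN or dA compared with wild type.

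Of 19 measured initiation factor genes, 3 were called higher in dN compared with WN (median 0.26), where 9.49% of all genes were, and none lower, where 12.0% of all genes were. They were TIF5 (0.46), FUN12 (0.34) and SUI2 (0.31), for eIF5, eIF5B and the alpha subunit of eIF2. In dA compared with WA only TIF4632, for a form of eIF4G, was called, at 0.46 (SE 0.09, adjusted p = 0.00134), and in dI compared with WI only HCR1 was called, at -0.25 (adjusted p = 0.0085). Of 11 measured elongation and termination factor genes, CAM1, for a subunit of the exchange factor eEF1B, was called higher in dN (0.35, adjusted p = 0.00022) and in dI (0.37, adjusted p = 0.000119), each against wild type, and in WA compared with WN (0.25, adjusted p = 0.013). ANB1 was called higher by 0.42 in dN and HEF3 lower by -0.60 in dA, and both were low signals. ANB1 read 2.89 to 3.89 over all arrays, under the array background of 4.38 to 4.63, and its dN and WN arrays overlapped. HEF3 read 4.86, 4.66 and 4.74 in dA, just above that background. Among 7 ribosome-associated chaperone genes only SSB2 was called, higher by 0.28 in dN (adjusted p = 0.0419).

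The number of members called rested on few cultures. With 1 array left out at a time, the count in dN compared with WN was 1 without WN replicate 2, 5 without dN replicate 3, 8 without WN replicate 1 and 10 without the unnumbered dN array. It was 73 without WA replicate 1 and 90 without dN replicate 2, 17 to 24 without WN replicate 3, WI replicate 2 or 3, dI replicate 1 or any dA array, and 26 to 41 without any of the others. Over all 5449 genes the full fit called 517 higher and 653 lower. Dropping WN replicate 2 gave 240 and 484, and dropping dN replicate 3 gave 548 and 599. In either case members were called higher less often than all genes, the reverse of the full fit. Members stayed ahead on dropping WN replicate 1 (233 and 528), the unnumbered dN array (327 and 620) or dN replicate 2 (1065 and 820). RPS14B was the only 1 of the 37 genes called in all 18 fits with 1 array left out. The 5 genes called without dN replicate 3 were RPL12A, RPL14A, RPL22B, RPS14B and RPS25B. The median was then 0.18, and all 122 genes stayed above 0.

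Between dI and dN the count was 2 without dI replicate 3, 5 without dN replicate 3, 6 without the unnumbered dN array, 7 without dI replicate 2, 8 without dI replicate 1 or dA replicate 2, 10 without dA replicate 3, 11 without WI replicate 3, 37 without WA replicate 1 and 50 without dN replicate 2, and 12 to 20 without any of the others. Over all 5449 genes, 384 were called higher and 315 lower with all 18 arrays. These were 221 and 135 without dI replicate 3, 474 and 432 without dN replicate 3, and 565 and 621 without dN replicate 2. In the fits without dI replicate 3 and without dN replicate 3, a smaller share of members than of all genes was called lower. RPS17B and RPS22B were called in all 18 fits. Without dN replicate 3 the median was -0.13 with 114 of 122 genes below 0. RPS22B was then at -0.57 (SE 0.14, adjusted p = 0.0137), RPS17B at -0.41 (SE 0.11, adjusted p = 0.0159) and RPS14B at -0.63 (SE 0.17, adjusted p = 0.0214).

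Between dA and WA the count was 2 without WA replicate 1, 4 without dA replicate 2 or 3, 7 without dA replicate 1, 21 without WA replicate 3, 25 without dN replicate 2, 32 without WA replicate 2 and 41 without dN replicate 3, and 10 or 11 otherwise. Over all 5449 genes, 523 were called higher and 739 lower with all 18 arrays. These were 344 and 577 without WA replicate 1, and 831 and 1002 without dN replicate 3. RPS14B and RPL15B were called in all 18 fits. Without WA replicate 1 the median was 0.10 with 110 of 122 genes above 0, RPS14B was at 0.55 (SE 0.13, adjusted p = 0.00913) and RPL15B at -0.29 (SE 0.09, adjusted p = 0.0379). The small difference of dA from dN depended on dN replicate 3 as well, since without it the median was 0.01 with 68 of 122 genes above 0, and RPL27A was not called.

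**Figure D5:**
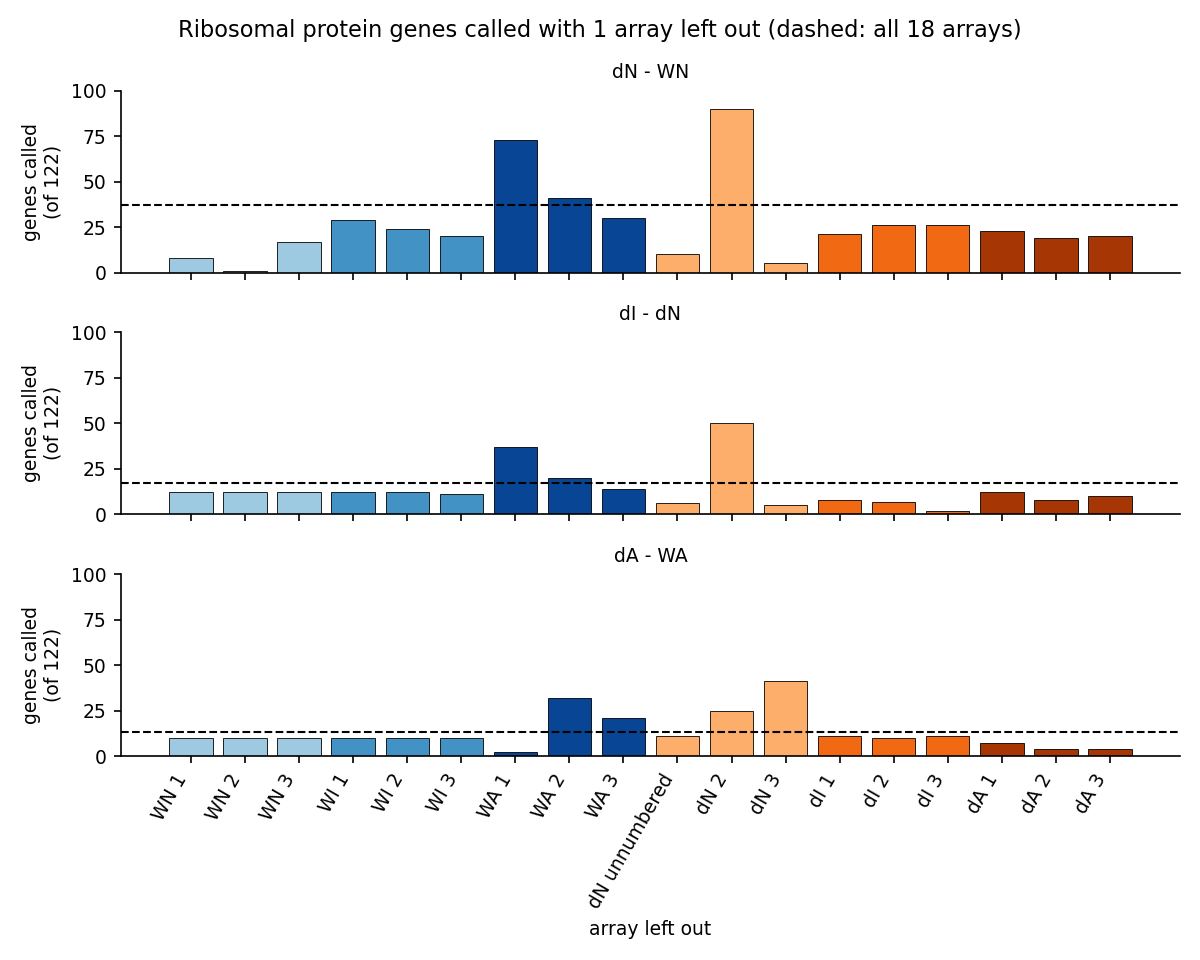
Number of the 122 ribosomal protein genes called (either direction, adjusted p under 0.05) when the array named below is left out of the fit, for 3 comparisons; dashed lines mark the counts with all 18 arrays (37, 17 and 13). Counts ranged from 1 to 90 in dN - WN, from 2 to 50 in dI - dN and from 2 to 41 in dA - WA.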

How the data were processed

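Total RNA from 18 bioreactor cultures, 3 per strain, was hybridised to Affymetrix yeast expression arrays. The authors corrected the background as in RMA with perfect-match probes, normalized between arrays with qspline, summarised each probe set by median polish and deposited log2 values, which were used as deposited. Of 10928 probe sets, 5498 carried a single symbol of a reference gene and covered 5449 genes. For a gene with several, the set with the highest mean was taken. The array background is the 95th percentile of the remaining probe sets.

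Strain means were estimated from the 18 arrays together by limma 3.58.1 (R 4.3.3), with empirical Bayes variances on 12 residual degrees of freedom. Calls needed a p under 0.05 after Benjamini-Hochberg adjustment across the 5449 tested genes. The fit was tested on simulated data. Replicates are separate fermentations. One dN array has no replicate number and is called unnumbered. With 3 against 3 arrays there is no exact permutation p under 0.10, so no such test was used.

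Named are up to 6 called members per direction and comparison with the largest change, the 6 pairs with the largest gap between copies, members at background, and up to 4 called genes per list. RPL14B, RPL18B, RPL31A, RPL10, the RPS9 pair, the called genes without a copy letter and those shared by 2 comparisons were picked with their values in view. The members and lists were chosen with earlier results of these data known. Alternatives were other normalizations, variance settings, array weights, probe sets, thresholds, a replicate block and leaving out arrays. Leaving out dN replicate 3 and WA replicate 1 together was added after the data had been seen.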

Additional observations from a re-analysis of the deposited data

How the results depend on the processing

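The direction of every named log2 fold change was kept in all of its alternatives (1564 values, of which 362 missed the threshold). The stricter threshold, other variance settings without array weights, and fitting only the strains compared cannot change a log2 fold change or a median. Nor can leaving out an array of a strain outside the comparison. Part of the stability of directions and medians was therefore fixed in advance. The medians over members moved by less than the spread between cultures in 593 of 594 values, and the exception was the large subunit median in dA - dI without dI replicate 3. Counts of called members were less stable. They were 37, 17 and 13 in dN - WN, dI - dN and dA - WA. With only the strains compared in the fit they were 1, 0 and 8, at an adjusted p under 0.01 they were 0, 2 and 2, and with array weights 87, 45 and 47. Calls over all 5449 genes moved too. With only the strains compared, 63 were higher and 280 lower, 60 and 11, and 594 and 843. At the stricter threshold they were 168 and 418, 196 and 108, and 265 and 497. Array weights gave 1110 and 815, 681 and 938, and 1152 and 1223. Quantile normalization gave 16 and 6 members in dN - WN and dI - dN (all genes: 522 higher and 646 lower, and 402 and 313). The replicate block, which leaves out the unnumbered dN array, gave 4 and 5 members (all genes: 289 higher and 604 lower, and 328 and 199). The correlation of deviations was over 0.1 in 17 of 40 same-numbered pairs (from -0.564 to 0.675), so the numbers were not taken to pair the cultures, although 10 of 17 arrays correlated best with their own number, a hint of shared deviation from the data and not from the design.

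In dA - dI, where the count was 0, it was 17 with only the strains compared and 51 with array weights. In dI - WI it was 0, and 1 with only the strains compared or with median centring, and 5 with weights. In WA - WN it was 1, and 10 with weights, and in dA - dN 1, and 5 with weights. Both were 0 with only the strains compared, with median centring and at an adjusted p under 0.01, and dA - dN also with quantile normalization. WA - WI had 0, and 1 with weights. The interactions had 0, and 10 (insulin precursor) and 2 (α-amylase) with weights. Over all 5449 genes, weights gave 721 higher and 719 lower in dA - dI, and 1242 and 993 in dI - WI. They gave 752 and 702 in WA - WN, 861 and 1184 in dA - dN, and 172 and 115 in WA - WI. In the interactions they gave 174 and 171 (insulin precursor) and 349 and 468 (α-amylase).

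With dN replicate 3 and WA replicate 1 both left out, an alternative chosen after seeing the data, the counts were 37 in dN - WN, 21 in dI - dN, 7 in dA - WA, 17 in dA - dI, 7 in WA - WN, 1 in dI - WI and 2 in the insulin precursor interaction. Over all 5449 genes that fit called 713 higher and 678 lower, 543 and 547, 691 and 861, and 208 and 327 in the first of these comparisons. In the others it called 487 and 418, 992 and 804, and 63 and 45. Leaving out single arrays gave 1 to 90 in dN - WN, 2 to 50 in dI - dN, 2 to 41 in dA - WA, 0 to 2 in dA - dN, and 0 to 1 in dI - WI, WA - WN, dA - dI and both interactions, and 0 in WI - WN and WA - WI. The cause of these changes was not tested. Promoter motifs were planned and not run. With 3 arrays per strain, the number of arrays limits the precision.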
